A study of Mus musculus with 20 samples.

Results

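The ribosome biogenesis factors of the nucleolus are proteins that make ribosomal RNA, modify and cut it, and assemble it with ribosomal proteins into the 2 subunits. They were followed here as a list of 50 genes in mouse liver. Members were found by the gene symbol that the array's platform annotation gives to a probe set, the group of probes that together read 1 transcript. Of the 50 symbols, 47 had a probe set, each of them 1, out of 19505 gene symbols and 22206 probe sets on the array. Nop56, Gnl3 and Ebna1bp2 were not analysed here. A signal of at least 4 on the log2 scale on at least 5 arrays was reached by 44 of the 47 members, and Dkc1, Bop1 and Rrp12 stayed below this filter on dim signals.

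The livers came from 4 groups of 5 mice, described as biological replicates, with 1 array per mouse: fasted Mcl1(L-/-), fed Mcl1(L-/-), fasted WT and fed WT. Mcl1 encodes an anti-apoptotic protein of the BCL2 family, and the study asks how its loss from the liver bears on the response to fasting. In the labels' protocol, Mcl1(F/F) mice, which carry a floxed gene, were given AAV-LP1-Cre, an adeno-associated virus whose liver-specific promoter drives Cre recombinase. The same protocol text stands on every sample, and the sources used here do not say whether WT mice were floxed or got a virus, so an effect of virus or Cre and one of Mcl1 loss cannot be told apart. Fasted mice were kept alone in wire-bottom cages and had no food for 48 h, fed mice always had food, and all had water. If fed mice were housed otherwise, effects of caging and of fasting cannot be told apart. Age and sex are not stated in the labels.

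Mcl1 itself checked the genotype labels. Its log2 signal ranged from 5.88 to 6.50 in fasted Mcl1(L-/-) livers, from 5.83 to 6.24 in fed Mcl1(L-/-) livers, from 7.16 to 7.41 in fasted WT livers and from 7.25 to 7.60 in fed WT livers. The genotypes did not overlap, and the limma adjusted p was 4.47e-06 in fasted and 5.07e-07 in fed mice. The array medians lay between 3.35 and 3.47 on the log2 scale. Hepatocyte markers were bright, with Alb, the gene of serum albumin, at a mean of 12.47.

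Ribosomes are built mainly in the nucleolus. RNA polymerase I copies the ribosomal DNA into a long precursor RNA, small nucleolar ribonucleoproteins (snoRNPs) guide its methylation and pseudouridylation, and 2 sets of assembly factors fold and cut the parts that become the small and the large subunit. Making ribosomes is among the costliest tasks of a cell, and it is known to follow the supply of nutrients and growth signals.

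Fasting in livers lacking Mcl1 was the comparison in which most of these genes moved. Of the 47 members, 26 rose and 0 fell in fasted against fed Mcl1(L-/-) livers (limma, Benjamini-Hochberg adjusted p under 0.05), where 8.2% of all probe sets on the array were called higher and 6.25% lower, and 16.9% of those past the filter on dim signals were called higher. The median difference over the members was 0.46 on the log2 scale, against -0.0015 over all probe sets, and 43 of 47 members lay above 0, as did 49.6% of all probe sets. The rise was modest for most: 20 of the 26 were up at least 1.5-fold and 5 at least 2-fold, namely Rrp1b, Ddx21, Nop58, Heatr1 and Wdr43. In 19 members every fasted Mcl1(L-/-) liver lay above every fed one, which held for 5.88% of all probe sets. In a whole tissue such as this, more cells of a type and more RNA per cell cannot be told apart.

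In WT livers fasting raised 2 of the 47 members, Rrp1b and Ftsj3, and lowered 0, beside 3.1% of all probe sets called higher and 3.68% lower. The members' median was 0.22 on the log2 scale, against 0.01 over all probe sets, and 34 of 47 lay above 0, beside 53.4% of all probe sets. The 2 groups were apart in 3 members, Rrp1b, Ftsj3 and Gnl2, beside 3.54% of all probe sets. The count of 2 became 1 without fed WT replicate 1, fed WT replicate 5 or fasted WT replicate 4, and 4 without fasted WT replicate 5.

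Between genotypes, 13 members were higher and 0 lower in fasted Mcl1(L-/-) than in fasted WT livers, beside 3.32% of all probe sets called higher and 1.67% lower. The members' median was 0.34 on the log2 scale, and 44 of 47 lay above 0, beside 46.3% of all probe sets. This comparison shares its 5 fasted Mcl1(L-/-) arrays with the fasting comparison in that genotype. The groups were apart in 4 members, Nop58, Ddx21, Noc3l and the dim Bop1, beside 2.54% of all probe sets. In fed mice 0 of 47 members were called for the deletion, beside 0.0225% of all probe sets called higher and 0.0135% called lower. With so few calls on the whole array, this does not show that the members were unchanged. The fed groups were apart in 2 members, Bms1 and Mrto4, both higher in Mcl1(L-/-) livers, and this was not counted over all probe sets. In that comparison 3 members had an unadjusted p under 0.05, and the share of all probe sets under it is not given here. The median was 0.05 on the log2 scale, and the 47 estimates ran between -0.25 for Npm1 and 0.36 for Noc4l.

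The 13 genes higher in fasted Mcl1(L-/-) than in fasted WT livers became 22 without fasted Mcl1(L-/-) replicate 3 (4.71% of all probe sets higher), 7 without fasted Mcl1(L-/-) replicate 2, and 6 without fasted Mcl1(L-/-) replicate 5 or without fasted WT replicate 4. A fit to the arrays of these 2 groups alone also gave 6. The fasted Mcl1(L-/-) livers were the most variable group for 23 of the 47 members, while the standard errors (SE) given here come from a fit that shares 1 spread among all 4 groups. Array weights, which come from all probe sets and are lower for noisier arrays, were 0.74 to 0.894 in fasted Mcl1(L-/-) livers. Over the 20 arrays they ran from 0.661 to 1.41.

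**Figure D1:**
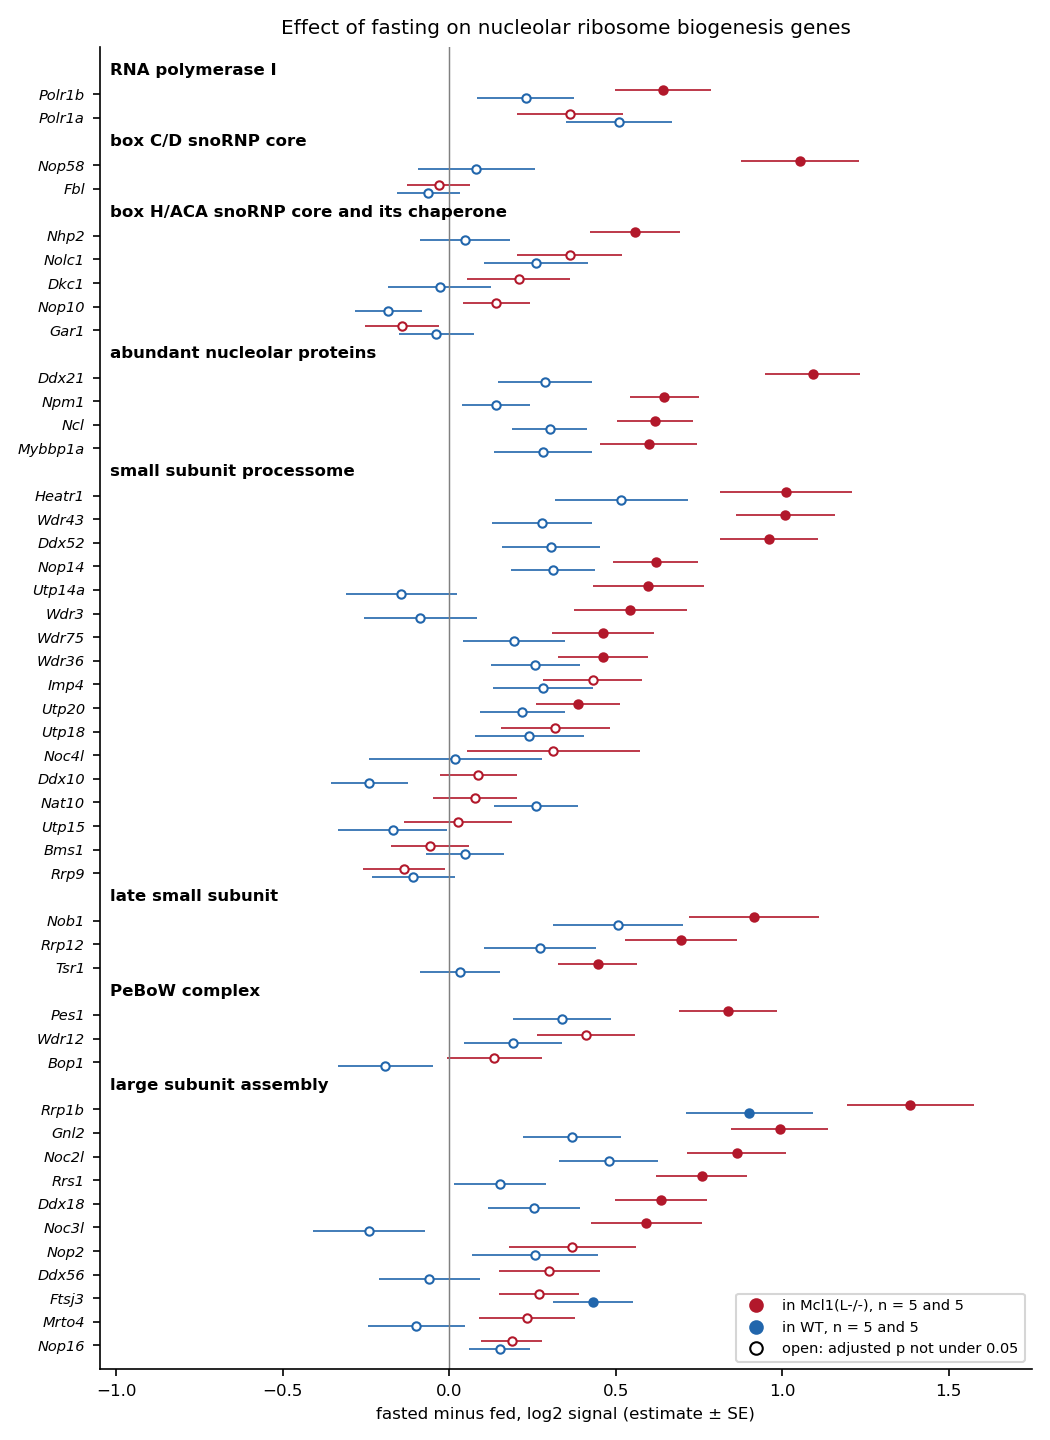
Difference between fasted and fed livers on the log2 scale (x axis) for the 47 measured genes, grouped by role, in Mcl1(L-/-) livers (red) and WT livers (blue). Points are limma estimates and bars their SE, with 5 livers in each group, and filled points have an adjusted p under 0.05, which 26 red and 2 blue points do.

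The start regions of these genes were read from RefSeq promoters on GRCm38.p6, which cover 250 bases before and 50 after each annotated start. Of the 47 measured members, 40 matched, with 44 promoters. Npm1, Gnl2, Bop1, Wdr36, Rrs1, Fbl and Rrp12 had no entry. The bases before the start are printed for 4 genes that rose with fasting in Mcl1(L-/-) livers, those with 1 promoter entry among the 5 matched members of lowest p. They run over 250 bases, 5′ to 3′ on the gene's strand, with each CG in capitals because dense CG marks the promoters of widely expressed genes.
Ddx21, chr10:62602299-62602548, minus strand: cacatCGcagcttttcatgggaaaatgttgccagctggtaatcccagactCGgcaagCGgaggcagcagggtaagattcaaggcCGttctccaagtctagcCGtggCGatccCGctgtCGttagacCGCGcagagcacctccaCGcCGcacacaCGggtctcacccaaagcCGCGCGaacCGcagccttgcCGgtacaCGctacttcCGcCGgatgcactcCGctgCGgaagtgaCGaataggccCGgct
Wdr43, chr17:71615965-71616214, plus strand: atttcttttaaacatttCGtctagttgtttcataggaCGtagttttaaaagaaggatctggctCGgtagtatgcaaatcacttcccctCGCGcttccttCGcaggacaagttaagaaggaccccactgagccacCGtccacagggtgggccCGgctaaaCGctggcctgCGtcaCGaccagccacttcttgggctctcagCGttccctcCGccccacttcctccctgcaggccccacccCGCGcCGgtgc
Ddx52, chr11:83941840-83942089, plus strand: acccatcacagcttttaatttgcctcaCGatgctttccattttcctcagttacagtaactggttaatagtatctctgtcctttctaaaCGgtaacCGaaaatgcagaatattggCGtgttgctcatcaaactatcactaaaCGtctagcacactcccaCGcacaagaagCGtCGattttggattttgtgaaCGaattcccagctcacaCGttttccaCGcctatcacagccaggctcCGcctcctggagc
Nop58, chr1:59684756-59685005, plus strand: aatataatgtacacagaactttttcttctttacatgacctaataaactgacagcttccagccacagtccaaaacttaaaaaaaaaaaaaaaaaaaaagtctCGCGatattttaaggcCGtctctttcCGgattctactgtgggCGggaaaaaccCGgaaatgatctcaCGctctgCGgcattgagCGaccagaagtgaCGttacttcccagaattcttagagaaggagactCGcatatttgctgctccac

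These stretches hold 25 CG pairs for Ddx21, 16 for Wdr43, 12 for Ddx52 and 11 for Nop58. Over the full 300 bases the members' promoters had a median of 21 CG pairs, against 20 in promoters of genes past the filter on dim signals and 7 in all 32851 promoters, so their CG count was near that of other genes read in this liver. Each motif named here was searched on both strands. The GC box GGGCGG stood in 65.9% of the members' promoters, against 61.1% of promoters of genes past the filter and 35.7% of all promoters. TATAAA, the TATA box, stood in 4.55%, against 7.9% and 13.6%. The ETS-type motif CCGGAAG stood in 29.5%, against 17.5% and 8.86%. CCAAT stood in 38.6%, against 37.6% and 37.4%. None of these letters contain another of the motifs.

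CACGTG, the E-box that MYC and its partner MAX can bind, stood in 18.2% of the members' promoters, against 10% of promoters of genes past the filter and 7.15% of all promoters. These were 8 genes, 5 of the 21 matched members that rose with fasting in Mcl1(L-/-) livers and 3 of the 19 that were not called. The 8 E-boxes are in capitals here, with up to 10 bases on either side, and were chosen after their letters were seen. A match is a run of letters and shows no binding.
Pes1, chr11:3963967-3963992, plus strand: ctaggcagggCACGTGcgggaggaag
Wdr43, chr17:71616222-71616247, plus strand: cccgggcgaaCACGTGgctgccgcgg
Tsr1, chr11:74898094-74898119, plus strand: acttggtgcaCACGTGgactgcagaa
Utp20, chr10:88826765-88826787, minus strand: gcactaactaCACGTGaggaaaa
Mybbp1a, chr11:72441357-72441376, plus strand: cttctgagccCACGTGtttg
Utp18, chr11:93885771-93885796, minus strand: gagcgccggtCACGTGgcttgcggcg
Nop2, chr6:125131813-125131838, plus strand: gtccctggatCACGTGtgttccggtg
Imp4, chr1:34439698-34439723, plus strand: ggtcttagacCACGTGacatcccaaa

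The E-box began within the first 50 transcribed bases in the 5 genes that rose, at base 3 in Pes1, 18 in Wdr43, 25 in Tsr1, 38 in Utp20 and 41 in Mybbp1a. In the 3 that were not called it began before the start, 20 bases upstream in Utp18, 60 in Nop2 and 121 in Imp4. This split was seen only after the sequences were read. E-box positions were not counted over other promoters, so no link between position and the rise can be drawn.

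RNA polymerase I was read through its 2 largest subunits, which together form the active site. Polr1b, the second largest, rose with fasting in Mcl1(L-/-) livers. Its log2 signals were 5.06, 5.26, 5.17, 5.44 and 5.52 in fasted Mcl1(L-/-) livers, against 4.18, 4.48, 4.78, 4.91 and 4.89 in fed Mcl1(L-/-) livers. In WT livers they were 4.95, 5.19, 4.56, 5.01 and 4.92 with fasting, against 4.75, 4.40, 4.94, 4.61 and 4.78 with food. The lowest fasted Mcl1(L-/-) liver stood above the highest fed one, while the WT groups overlapped. The difference was 0.64 ± 0.15 in Mcl1(L-/-) livers (log2, SE, adjusted p = 0.00294) and 0.23 ± 0.15 in WT livers (adjusted p = 0.461).

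Polr1a, the largest subunit, read 5.64, 5.61, 5.82, 5.65 and 5.34 in fasted Mcl1(L-/-) livers, against 4.61, 5.36, 5.43, 5.47 and 5.39 in fed Mcl1(L-/-) livers. In fasted WT livers it read 5.92, 5.48, 5.33, 5.59 and 5.19, against 5.13, 5.20, 5.10, 4.66 and 4.88 in fed WT livers. Fed Mcl1(L-/-) replicate 1 was well below the other fed livers of that genotype. Neither fasting difference passed, at 0.36 ± 0.16 in Mcl1(L-/-) livers (adjusted p = 0.154) and 0.51 ± 0.16 in WT livers (adjusted p = 0.056).

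Box C/D snoRNPs carry the guide RNAs for methylation of ribosomal RNA. Their core proteins moved apart from each other. Nop58, a scaffold of the particle, read 5.91, 5.91, 5.42, 6.500 and 5.92 in fasted Mcl1(L-/-) livers, against 4.36, 4.98, 4.95, 4.93 and 5.18 in fed Mcl1(L-/-) livers. It read 4.47, 4.71, 4.89, 4.88 and 4.83 in fasted WT livers, against 4.36, 4.51, 4.95, 4.47 and 5.07 in fed WT livers. All 5 fasted Mcl1(L-/-) livers lay above every other liver, and the other 3 groups overlapped. With fasting it rose 2.08-fold in Mcl1(L-/-) livers (log2 1.05 ± 0.18, adjusted p = 0.000143), while the WT difference was 0.08 ± 0.18 (adjusted p = 0.889). Between fasted genotypes it was 2.26-fold higher in Mcl1(L-/-) livers (adjusted p = 0.000792), the largest of the 47 differences in that comparison. In fed mice the genotypes differed by 0.21 ± 0.18 (adjusted p = 0.928).

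Fbl, fibrillarin, is the methyltransferase of the same particle. It read 7.64, 7.55, 7.55, 7.56 and 7.60 in fasted Mcl1(L-/-) livers, against 7.52, 7.56, 7.64, 7.69 and 7.65 in fed Mcl1(L-/-) livers. WT livers read 7.44, 7.47, 7.62, 7.34 and 7.37 when fasted, against 7.25, 7.58, 7.65, 7.39 and 7.69 when fed. All 20 values lay in a narrow band. The fasting difference was -0.03 in Mcl1(L-/-) livers, with a 95% interval of -0.23 to 0.16, and -0.06 in WT livers, with an interval of -0.26 to 0.13.

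Box H/ACA snoRNPs guide pseudouridylation of ribosomal RNA and share their core with telomerase. Of 4 core proteins and the chaperone Nolc1, only Nhp2 passed in any of the 5 comparisons. Nhp2, a small RNA-binding core protein, read 7.25, 7.60, 6.74, 7.37 and 7.61 in fasted Mcl1(L-/-) livers, against 6.76, 6.95, 6.66, 6.70 and 6.71 in fed Mcl1(L-/-) livers. It read 6.84, 6.41, 6.73, 6.58 and 6.61 in fasted WT livers, against 6.45, 6.42, 6.69, 6.59 and 6.77 in fed WT livers. Fasted Mcl1(L-/-) replicate 3 lay among the fed livers, and the other 4 stood above every other liver. Nhp2 rose 1.47-fold with fasting in Mcl1(L-/-) livers (adjusted p = 0.00532) and was 1.60-fold higher in fasted Mcl1(L-/-) than in fasted WT livers (adjusted p = 0.00527).

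Nop10, the smallest core protein and the brightest of the 47 probe sets, read 9.62, 9.998, 9.75, 9.96 and 9.89 in fasted Mcl1(L-/-) livers, against 9.59, 9.63, 9.71, 9.91 and 9.68 in fed Mcl1(L-/-) livers. WT values were 9.76, 9.48, 9.53, 9.72 and 9.67 with fasting, against 9.72, 9.78, 10.02, 9.70 and 9.85 with food. The groups overlapped in both genotypes, and the differences were 0.14 ± 0.10 in Mcl1(L-/-) livers (adjusted p = 0.455) and -0.18 ± 0.10 in WT livers (adjusted p = 0.373). Nolc1, which binds both classes of snoRNP, read 3.80, 4.54, 4.15, 4.32 and 4.35 in fasted Mcl1(L-/-) livers, against 3.72, 3.96, 3.53, 4.05 and 4.10 in fed Mcl1(L-/-) livers. In WT livers its signals were 4.37, 4.44, 3.93, 4.28 and 3.92 with fasting, against 3.55, 4.08, 3.89, 3.80 and 4.31 with food. These ranges overlapped too, with differences of 0.36 in Mcl1(L-/-) livers (adjusted p = 0.147) and 0.26 in WT livers. Gar1, a further core protein, differed by -0.14 in Mcl1(L-/-) livers (adjusted p = 0.514) and -0.04 in WT livers. Dkc1, the pseudouridine synthase, had group means between 2.63 and 2.84 on the log2 scale, too dim to be read as a level.

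The abundant nucleolar proteins all rose with fasting in Mcl1(L-/-) livers, 4 of 4, and 0 of 4 were called in WT livers. Ddx21 is an RNA helicase that works in transcription of the ribosomal DNA and in processing of its RNA. It read 7.47, 7.76, 6.88, 7.34 and 7.73 in fasted Mcl1(L-/-) livers, against 6.24, 6.21, 6.54, 6.42 and 6.31 in fed Mcl1(L-/-) livers. Its WT signals were 6.27, 6.56, 6.83, 6.38 and 6.46 with fasting, against 6.16, 6.41, 6.31, 6.01 and 6.18 with food. The lowest fasted Mcl1(L-/-) liver, replicate 3, was still above every other liver, by a small margin. Ddx21 had the lowest p of the 47 for fasting in Mcl1(L-/-) livers (2.13-fold, log2 1.09 ± 0.14, adjusted p = 7.07e-06). In WT livers it differed by 0.29 ± 0.14 (adjusted p = 0.305), and fasted Mcl1(L-/-) livers were 1.91-fold above fasted WT livers (adjusted p = 0.000917).

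Npm1, nucleophosmin, is a histone chaperone and a main building block of the nucleolus. It read 8.68, 9.002, 8.61, 8.91 and 9.002 in fasted Mcl1(L-/-) livers, against 8.16, 8.41, 8.15, 8.26 and 8.01 in fed Mcl1(L-/-) livers. In WT livers it read 8.59, 8.61, 8.41, 8.71 and 8.61 with fasting, against 8.42, 8.46, 8.58, 8.43 and 8.34 with food. By mean, fed Mcl1(L-/-) livers were the lowest group and fasted Mcl1(L-/-) livers the highest, with WT livers between them. The fasting difference was 0.65 ± 0.10 in Mcl1(L-/-) livers (adjusted p = 7.42e-05) and 0.14 ± 0.10 in WT livers (adjusted p = 0.552). Between genotypes it was 0.25 ± 0.10 in fasted mice (adjusted p = 0.17) and -0.25 ± 0.10 in fed mice (adjusted p = 0.667).

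Ncl, nucleolin, binds the precursor RNA and the ribosomal DNA. Signals were 8.12, 8.21, 7.80, 7.93 and 8.17 in fasted Mcl1(L-/-) livers, against 7.30, 7.32, 7.35, 7.57 and 7.61 in fed Mcl1(L-/-) livers. They were 7.56, 7.68, 7.62, 7.69 and 7.999 in fasted WT livers, against 7.19, 7.62, 7.43, 7.32 and 7.48 in fed WT livers. Fasted and fed livers were apart in Mcl1(L-/-) mice and overlapped slightly in WT mice. Ncl rose 1.53-fold in Mcl1(L-/-) livers (adjusted p = 0.000372), and its WT difference of 0.30 ± 0.11 did not pass (adjusted p = 0.13). Mybbp1a, a nucleolar MYB-binding protein whose promoter window holds an E-box, rose 1.51-fold in Mcl1(L-/-) livers (adjusted p = 0.00568), against a WT difference of 0.28 (adjusted p = 0.338).

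The small subunit processome is the large particle that forms on the nascent precursor RNA and releases the small subunit's part. Of its 17 members, 9 rose with fasting in Mcl1(L-/-) livers and 0 in WT livers, and 4 were higher in fasted Mcl1(L-/-) than in fasted WT livers (Heatr1, Wdr43, Utp14a and Ddx52). Wdr43, a WD-repeat protein of the subcomplex that first meets the precursor RNA, read 6.94, 6.96, 6.52, 6.97 and 7.21 in fasted Mcl1(L-/-) livers, against 5.45, 5.90, 6.03, 6.09 and 6.10 in fed Mcl1(L-/-) livers. It read 5.92, 6.24, 6.59, 6.33 and 6.01 in fasted WT livers, against 5.92, 6.04, 5.70, 5.83 and 6.20 in fed WT livers. In Mcl1(L-/-) mice all fasted livers lay above all fed livers, and only fasted WT replicate 3 reached into the fasted Mcl1(L-/-) range. Wdr43 rose 2.01-fold with fasting in Mcl1(L-/-) livers (log2 1.01 ± 0.15, adjusted p = 3.21e-05) and differed by 0.28 ± 0.15 in WT livers (adjusted p = 0.354). Fasted genotypes differed by 0.70 ± 0.15 (adjusted p = 0.00789) and fed ones by -0.03 ± 0.15.

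Heatr1, a very large scaffold of the same subcomplex, read 5.77, 5.88, 5.03, 5.69 and 6.05 in fasted Mcl1(L-/-) livers, against 4.04, 4.60, 4.83, 5.11 and 4.77 in fed Mcl1(L-/-) livers. WT livers gave 5.20, 4.63, 4.99, 4.96 and 4.84 with fasting, against 4.31, 4.85, 4.69, 3.89 and 4.27 with food. Within Mcl1(L-/-) mice only fasted replicate 3 and fed replicate 4 crossed. The rise was 2.02-fold in Mcl1(L-/-) livers (adjusted p = 0.000792), with 0.52 ± 0.20 in WT livers (adjusted p = 0.145) and 0.76 ± 0.20 between fasted genotypes (adjusted p = 0.0285).

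Ddx52 is the mouse counterpart of a yeast helicase that frees a snoRNA from the precursor. It read 5.79, 5.54, 5.36, 5.73 and 6.002 in fasted Mcl1(L-/-) livers, against 4.82, 4.70, 4.74, 5.03 and 4.33 in fed Mcl1(L-/-) livers. WT signals were 5.25, 4.999, 5.18, 4.98 and 5.37 with fasting, against 4.71, 4.68, 5.30, 4.59 and 4.98 with food. The fasted Mcl1(L-/-) livers stood above every fed liver. Ddx52 rose 1.95-fold in Mcl1(L-/-) livers (adjusted p = 5.22e-05), differed by 0.31 ± 0.15 in WT livers (adjusted p = 0.289), and was 1.44-fold higher in fasted Mcl1(L-/-) than in fasted WT livers (adjusted p = 0.0386).

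Utp14a, whose yeast counterpart activates a helicase of the processome, read 5.14, 5.16, 4.68, 4.90 and 5.49 in fasted Mcl1(L-/-) livers, against 4.15, 4.89, 4.40, 4.75 and 4.19 in fed Mcl1(L-/-) livers. It read 4.75, 4.54, 4.32, 4.003 and 4.26 in fasted WT livers, against 4.51, 4.65, 4.79, 4.33 and 4.30 in fed WT livers. The Mcl1(L-/-) groups overlapped through replicate 3 of the fasted mice. The differences had opposite signs, 0.60 ± 0.17 in Mcl1(L-/-) livers (adjusted p = 0.0154) and -0.14 ± 0.17 in WT livers (adjusted p = 0.752), and fasted genotypes differed by 0.70 ± 0.17 (adjusted p = 0.0175).

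The other 5 processome genes that rose in Mcl1(L-/-) livers were Nop14, by 0.62 on the log2 scale, Wdr3 by 0.54, Wdr75 by 0.46, Wdr36 by 0.46 and Utp20 by 0.39. The calls of Wdr75, Utp20 and Wdr3 were lost under 13, 10 and 6 of 27 alternatives. Of the 8 that did not pass, Imp4 came nearest (log2 0.43, adjusted p = 0.0555). Utp18 (0.32), Noc4l (0.31), Ddx10 (0.09), Nat10 (0.08), Utp15 (0.03), Bms1 (-0.06) and Rrp9 (-0.14) had adjusted p-values of 0.244 and above. Bms1, a GTPase of the processome, had the lowest p of the role for the deletion in fed mice. It read 5.89, 5.88, 6.40, 5.95 and 5.98 in fasted Mcl1(L-/-) livers and 5.93, 6.09, 5.87, 6.18 and 6.34 in fed Mcl1(L-/-) livers, against 5.91, 5.96, 5.75, 5.52 and 5.71 in fasted WT livers and 5.70, 5.83, 5.79, 5.70 and 5.59 in fed WT livers. Every fed Mcl1(L-/-) liver lay above every fed WT liver, with a difference of 0.36 ± 0.12 that did not pass (adjusted p = 0.507).

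Late small subunit factors act after the processome has come apart, and all 3 rose with fasting in Mcl1(L-/-) livers. Nob1 is the endonuclease that makes the last cut at the end of the small subunit's RNA. It read 6.10, 5.94, 5.39, 6.01 and 6.32 in fasted Mcl1(L-/-) livers, against 5.07, 4.82, 4.76, 5.22 and 5.31 in fed Mcl1(L-/-) livers. WT livers read 5.57, 5.72, 5.73, 5.39 and 4.72 with fasting, against 4.54, 5.47, 4.91, 4.77 and 4.90 with food. The Mcl1(L-/-) groups were just apart, and the WT groups overlapped. The rise was 1.88-fold in Mcl1(L-/-) livers (adjusted p = 0.00171), beside 0.51 ± 0.19 in WT livers (adjusted p = 0.144).

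Tsr1, which occupies the small subunit precursor until late, read 6.03, 6.17, 5.73, 6.46 and 6.13 in fasted Mcl1(L-/-) livers, against 5.56, 5.89, 5.68, 5.56 and 5.59 in fed Mcl1(L-/-) livers. WT values were 5.67, 5.84, 5.69, 5.44 and 5.56 with fasting, against 5.40, 5.67, 5.74, 5.67 and 5.54 with food. Only fasted Mcl1(L-/-) replicate 3 lay within the range of the other groups. Tsr1 rose 1.36-fold in Mcl1(L-/-) livers (adjusted p = 0.0115), showed 0.03 ± 0.12 in WT livers (adjusted p = 0.943) and was 1.38-fold higher in fasted Mcl1(L-/-) than in fasted WT livers (adjusted p = 0.0261). Rrp12, which takes part in export of the precursor, was dim. It read 3.94, 4.20, 3.75, 4.18 and 4.38 in fasted Mcl1(L-/-) livers, against 3.28, 3.47, 3.38, 3.66 and 3.19 in fed Mcl1(L-/-) livers. In WT livers it read 3.48, 3.44, 3.997, 3.61 and 3.11 with fasting, against 3.64, 3.21, 3.33, 2.67 and 3.43 with food. The Mcl1(L-/-) groups were apart, and the difference was 0.70 ± 0.17 (adjusted p = 0.00498), from a probe set near the array medians.

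The PeBoW complex, made of Pes1, Bop1 and Wdr12, is needed to process the large subunit's RNA. Pes1 was the member called. It read 7.48, 7.84, 7.11, 7.68 and 7.98 in fasted Mcl1(L-/-) livers, against 6.66, 6.94, 7.02, 6.83 and 6.45 in fed Mcl1(L-/-) livers. It read 7.13, 7.02, 7.02, 6.89 and 7.09 in fasted WT livers, against 6.69, 6.80, 6.63, 6.34 and 7.004 in fed WT livers. Fasted and fed Mcl1(L-/-) livers were apart, and only the lowest fasted Mcl1(L-/-) liver, replicate 3, came down to the fasted WT range. The rise was 1.79-fold in Mcl1(L-/-) livers (log2 0.84 ± 0.15, adjusted p = 0.000243), against 0.34 ± 0.15 in WT livers (adjusted p = 0.215). Fasted Mcl1(L-/-) livers were 1.501-fold above fasted WT livers (adjusted p = 0.0228).

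Wdr12, its WD-repeat partner, read 4.96, 5.12, 4.84, 5.69 and 4.99 in fasted Mcl1(L-/-) livers, against 4.45, 4.74, 4.71, 4.93 and 4.72 in fed Mcl1(L-/-) livers. It read 5.07, 4.89, 4.53, 4.84 and 4.98 in fasted WT livers, against 4.37, 4.76, 4.82, 4.48 and 4.92 in fed WT livers. The groups overlapped, and neither difference passed (0.41 ± 0.15 in Mcl1(L-/-) livers, adjusted p = 0.0655, and 0.19 ± 0.15 in WT livers, adjusted p = 0.581). Bop1 was too dim to be read, with group means of 3.79 in fasted Mcl1(L-/-), 3.65 in fed Mcl1(L-/-), 3.501 in fasted WT and 3.69 in fed WT livers.

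Large subunit assembly factors gave 6 of 11 members up with fasting in Mcl1(L-/-) livers, and both of the members called in WT livers. Rrp1b, a nucleolar protein of early large subunit particles, had the largest fasting difference of the 47 in both genotypes. It read 6.45, 6.63, 5.55, 5.85 and 6.63 in fasted Mcl1(L-/-) livers, against 4.73, 4.87, 4.84, 4.94 and 4.80 in fed Mcl1(L-/-) livers. It read 5.70, 6.20, 5.58, 5.29 and 5.91 in fasted WT livers, against 5.19, 4.82, 4.54, 5.04 and 4.57 in fed WT livers. Fasted and fed livers were apart in each genotype, and the fed groups had the same mean to 2 decimals. Rrp1b rose 2.61-fold in Mcl1(L-/-) livers (adjusted p = 1.43e-05) and 1.87-fold in WT livers (adjusted p = 0.00351), the single member called in both. Fasted genotypes differed by 0.49 ± 0.19 (adjusted p = 0.156).

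Gnl2, a GTPase that readies large subunit precursors for export, read 8.45, 8.28, 7.500, 7.61 and 8.15 in fasted Mcl1(L-/-) livers, against 6.81, 6.99, 7.14, 7.07 and 7.01 in fed Mcl1(L-/-) livers. WT livers read 7.32, 7.44, 7.52, 7.22 and 7.24 with fasting, against 7.07, 6.90, 6.84, 6.89 and 7.21 with food. Fasted livers stood above fed livers in both genotypes, by a wide gap in Mcl1(L-/-) mice and a very small one in WT mice. Gnl2 rose 1.99-fold in Mcl1(L-/-) livers (adjusted p = 3.2e-05), differed by 0.37 ± 0.15 in WT livers (adjusted p = 0.162), and was 1.56-fold higher in fasted Mcl1(L-/-) than in fasted WT livers (adjusted p = 0.0129).

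Noc2l and Noc3l belong to a family that escorts large subunit precursors through the nucleus. Noc2l read 6.77, 6.68, 6.11, 6.22 and 6.79 in fasted Mcl1(L-/-) livers, against 5.48, 5.69, 5.62, 5.82 and 5.65 in fed Mcl1(L-/-) livers. It read 5.97, 5.59, 5.69, 6.17 and 6.27 in fasted WT livers, against 5.34, 5.46, 5.70, 5.57 and 5.23 in fed WT livers. The Mcl1(L-/-) groups were apart, and 3 of the 5 fasted Mcl1(L-/-) livers stood above every WT liver. Noc2l rose 1.82-fold in Mcl1(L-/-) livers (adjusted p = 0.000195), with 0.48 ± 0.15 in WT livers just outside the threshold (adjusted p = 0.0533) and 0.58 ± 0.15 between fasted genotypes (adjusted p = 0.0264).

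Noc3l had signals of 4.26, 4.20, 4.66, 5.13 and 4.26 in fasted Mcl1(L-/-) livers, against 4.08, 3.83, 3.57, 3.91 and 4.16 in fed Mcl1(L-/-) livers. WT signals were 3.91, 3.95, 3.89, 3.43 and 3.91 with fasting, against 4.05, 4.47, 3.86, 3.77 and 4.15 with food. Replicate 4 of the fasted Mcl1(L-/-) mice was high and replicate 4 of the fasted WT mice was low, in a gene close to the filter on dim signals. The fasting call in Mcl1(L-/-) livers was lost without fasted Mcl1(L-/-) replicate 4 or fed Mcl1(L-/-) replicate 3, and the genotype call in fasted mice without fasted WT replicate 4 or in a fit to these 2 groups alone. The difference was 0.59 ± 0.17 in Mcl1(L-/-) livers (adjusted p = 0.0171), -0.24 ± 0.17 in WT livers (adjusted p = 0.522) and 0.68 ± 0.17 between fasted genotypes (adjusted p = 0.0205). Several other members lost a call under more alternatives, as listed at the end.

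Ftsj3, a methyltransferase of the large subunit's RNA, was the one member called in WT but not in Mcl1(L-/-) livers. It read 5.01, 5.57, 5.31, 5.31 and 5.67 in fasted Mcl1(L-/-) livers, against 4.89, 5.35, 4.98, 5.06 and 5.25 in fed Mcl1(L-/-) livers. It read 5.14, 5.23, 5.32, 5.37 and 5.08 in fasted WT livers, against 4.61, 4.90, 4.84, 4.90 and 4.74 in fed WT livers. The WT groups were apart and the Mcl1(L-/-) groups overlapped, with fed Mcl1(L-/-) livers above fed WT livers by mean. The difference was 0.27 ± 0.12 in Mcl1(L-/-) livers (adjusted p = 0.163) and 0.43 ± 0.12 in WT livers (adjusted p = 0.0294), and the difference between these did not pass (log2 -0.16, adjusted p = 0.788).

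Mrto4, which holds the place of a stalk protein on large subunit precursors, read 6.49, 6.64, 6.34, 6.54 and 6.87 in fasted Mcl1(L-/-) livers, against 6.27, 6.39, 6.38, 6.35 and 6.33 in fed Mcl1(L-/-) livers. It read 6.06, 6.30, 6.52, 5.51 and 5.75 in fasted WT livers, against 6.11, 6.14, 6.22, 5.92 and 6.25 in fed WT livers. Fasted WT livers were widely spread and reached below the rest. In fed mice every Mcl1(L-/-) liver lay above every WT liver, by a very small margin. Its fasting differences of 0.23 ± 0.14 in Mcl1(L-/-) livers (adjusted p = 0.365) and -0.10 ± 0.14 in WT livers (adjusted p = 0.821) did not pass, while fasted Mcl1(L-/-) livers were 1.46-fold above fasted WT livers (adjusted p = 0.0294). Among the remaining members, Rrs1 rose 1.69-fold (adjusted p = 0.000337) and the helicase Ddx18 1.56-fold (adjusted p = 0.00201) with fasting in Mcl1(L-/-) livers. The methyltransferase Nop2 differed by 0.37, the helicase Ddx56 by 0.30 and Nop16 by 0.19, and none of these passed.

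**Figure D2:**
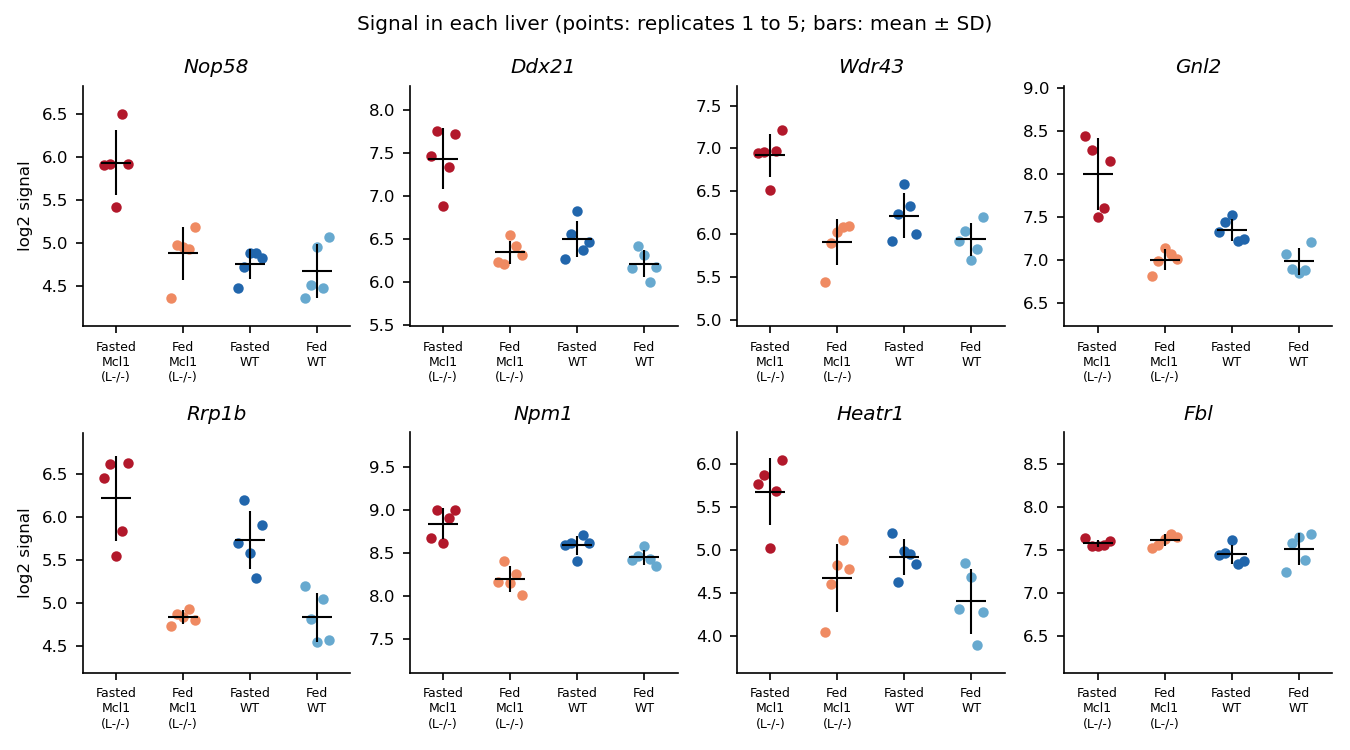
Log2 signal (y axis) in each liver for 7 genes that rose with fasting in Mcl1(L-/-) livers and for Fbl, with 5 points per group for replicates 1 to 5 from left to right and bars for the mean and SD. The fasted Mcl1(L-/-) livers of Nop58 and Ddx21 lie above all other livers, fasted livers of Rrp1b are high in both genotypes, and Fbl is level.

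Over all members, the fasting difference was larger in Mcl1(L-/-) than in WT livers for 41 of 47, beside 48.2% of all probe sets. Of the members, 25 were called in Mcl1(L-/-) and not in WT livers. Over all probe sets 8.2% were called higher in Mcl1(L-/-) and 3.1% in WT livers, and those called in only 1 genotype were not counted. A call in only 1 genotype is not a tested difference between genotypes. Tested directly, as the fasting difference in Mcl1(L-/-) livers minus that in WT livers, 0 members passed limma's adjusted p, beside 0.0811% of all probe sets called higher and 0.054% lower. The median of this interaction was 0.33 on the log2 scale, against -0.01 over all probe sets. An unadjusted p under 0.05 was found in 14 members, and the share of all probe sets under it is not given here. Ddx21 came nearest (0.80 ± 0.20, adjusted p = 0.0928), followed by Nop58 (0.97 ± 0.25, adjusted p = 0.098) and Noc3l (0.83 ± 0.24, adjusted p = 0.143). Its SE over the members had a median of 0.21, against 0.15 for a single difference. Without fasted Mcl1(L-/-) replicate 3, 6 members passed: Ddx21 (adjusted p = 0.00842), Nop58 (0.0202), Nhp2 (0.0374), Wdr43 (0.0398), Gnl2 (0.0464) and Npm1 (0.0498), beside 0.869% of all probe sets called higher. Every other alternative, by changed settings or by leaving out another array, gave 0. Replicate 3 was low in most members, so leaving it out raises their estimates, and this fit gives no separate support.

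That replicate stood apart across the list. Each liver was summarised by the median over the 47 members of its difference from the fed WT mean. Fasted Mcl1(L-/-) replicates 1 to 5 had 0.55, 0.62, 0.23, 0.58 and 0.68 on the log2 scale. Replicate 3 had the lowest signal of the 5 in 30 of 47 members, and replicate 5 the highest in 22. Fed Mcl1(L-/-) livers had -0.04, 0.07, 0.08, 0.16 and 0.12. Fasted WT livers had 0.15, 0.22, 0.18, 0.16 and 0.10, against -0.05, 0.07, 0.07, -0.11 and 0.06 in fed WT livers. Replicate 3, though lowest of its group, was just above all livers of the other 3 groups, and fasted WT livers lay above fed WT livers without overlap. The mean of the 5 medians was 0.53 ± 0.18 in fasted Mcl1(L-/-), 0.08 ± 0.08 in fed Mcl1(L-/-), 0.16 ± 0.05 in fasted WT and 0.01 ± 0.09 in fed WT livers (SD, n = 5). By group mean, fasted Mcl1(L-/-) livers were the highest of the 4 groups in 42 members and fed WT livers the lowest in 26. The order of group means was not counted over all probe sets.

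**Figure D3:**
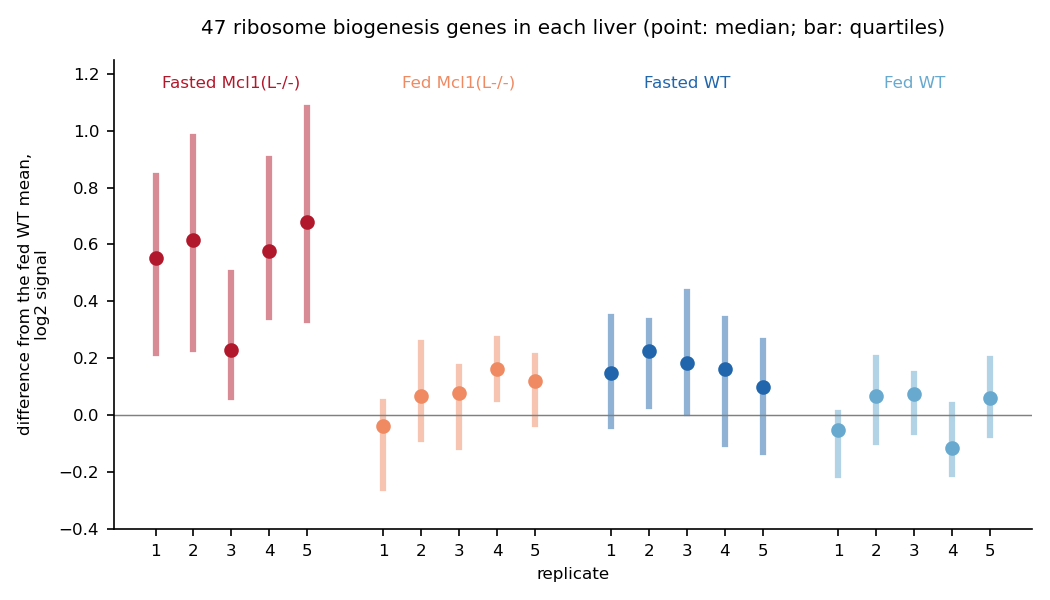
Difference of the 47 genes from the fed WT mean on the log2 scale (y axis) in each liver (x axis, replicates 1 to 5 of each group), with the median as a point and the quartiles as a bar. Fasted Mcl1(L-/-) medians lie between 0.23 and 0.68, with replicate 3 lowest, and those of the other 3 groups between -0.11 and 0.22.

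Genes of the same process outside the list were read in 5 further lists, of which 125 genes were measured. Their counts for fasting in Mcl1(L-/-) livers stand beside 8.2% of all probe sets called higher and 16.9% of those past the filter on dim signals. Of the 125 genes, 51 rose and 0 fell with fasting in Mcl1(L-/-) livers. In WT livers 8 rose, beside 3.1% of all probe sets. Between fasted genotypes 29 were higher in Mcl1(L-/-) than in WT livers, beside 3.32% of all probe sets. Other large subunit factors had 23 of 48 up with fasting in Mcl1(L-/-) livers and 4 of 48 in WT livers. They include Rsl1d1, a nucleolar protein (log2 1.31, adjusted p = 7.91e-07), Rpf2 (1.01, adjusted p = 5.51e-06) and Brix1 (0.97, adjusted p = 4.64e-06), both of the Brix domain family. Other small subunit factors had 17 of 38 up in Mcl1(L-/-) and 4 of 38 in WT livers. Ltv1, a late assembly factor, differed by 0.998 (adjusted p = 0.000343) and the processome protein Utp4 by 0.84 (adjusted p = 0.000226). Dcaf13 passed in both genotypes, by 0.71 in Mcl1(L-/-) livers (adjusted p = 3.29e-05) and 0.44 in WT livers (adjusted p = 0.00993).

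In the nuclear exosome, which trims precursor RNA, 5 of 15 genes (33.3%) rose with fasting in Mcl1(L-/-) livers and 0 in WT livers, with Exosc9 at 1.03 (adjusted p = 0.000366). Of 11 snoRNP assembly factors 2 (18.2%) rose in Mcl1(L-/-) livers, a share near that of all probe sets past the filter, Nufip1 by 1.30 (adjusted p = 0.000134) and Znhit6 by 0.66 (adjusted p = 0.00233), and 0 in WT livers. Further genes of RNA polymerase I transcription had 4 of 13 (30.8%) up in Mcl1(L-/-) livers, among them the subunits Twistnb (0.70, adjusted p = 0.00489) and Polr1c (0.53, adjusted p = 0.00714) and the initiation factor Taf1b (0.64, adjusted p = 0.0136). RNA polymerase III, which makes the smallest ribosomal RNA and the transfer RNAs, had 3 of 14 genes (21.4%) up in Mcl1(L-/-) livers, also near that share, and 1 in WT livers. Crcp, one of its subunits, differed by 1.58 in Mcl1(L-/-) livers (adjusted p = 3.46e-07) and by 0.90 in WT livers (adjusted p = 0.000968). The median difference for fasting in Mcl1(L-/-) livers was 0.40 in the large subunit, 0.39 in the small subunit, 0.35 in the exosome, 0.35 in the snoRNP, 0.34 in the RNA polymerase I and 0.09 in the RNA polymerase III list.

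**Figure D4:**
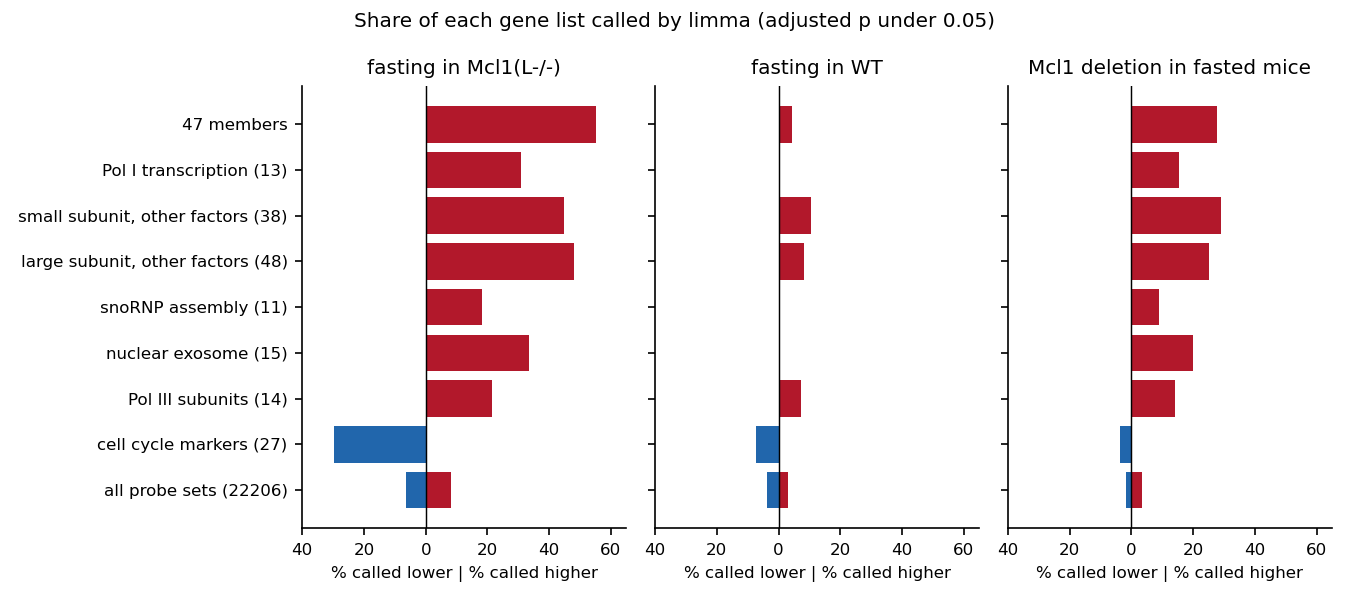
Share of each gene list (rows, with the number of genes measured) called higher (red, to the right) or lower (blue, to the left) by limma, in percent (x axis), for 3 comparisons. With fasting in Mcl1(L-/-) livers 26 of the 47 genes of the main list are called higher, beside 8.2% of all probe sets. Of 27 cell cycle markers, most of them dim, 8 are called lower, beside 6.25% of all probe sets.

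Myc encodes a transcription factor known to drive ribosome production. Its log2 signals were 8.33, 7.53, 5.96, 6.97 and 7.90 in fasted Mcl1(L-/-) livers and 7.19, 7.21, 4.77, 4.83 and 6.20 in fed Mcl1(L-/-) livers. They were 4.77, 4.52, 6.45, 6.45 and 4.65 in fasted WT livers, against 4.75, 3.95, 3.34, 3.20 and 3.42 in fed WT livers. Fasted Mcl1(L-/-) replicate 3 was the lowest of its group and replicate 1, with the second lowest member median, the highest. Livers varied widely, and Myc was higher in Mcl1(L-/-) than in WT livers among fasted mice (log2 1.97 ± 0.51, adjusted p = 0.0276), while the fed difference of 2.31 (adjusted p = 0.117), the fasting differences of 1.30 in Mcl1(L-/-) (adjusted p = 0.101) and 1.63 in WT livers (adjusted p = 0.0565) and the interaction of -0.34 (adjusted p = 0.916) did not pass. The part of Myc in the members' signals was not tested. In the network of MYC partners and relatives, 1 of 13 genes rose with fasting in Mcl1(L-/-) livers, Mycl (0.56, adjusted p = 0.00668), and 1 fell, the carbohydrate sensor Mlxipl (-1.75 in Mcl1(L-/-) livers, adjusted p = 1.58e-08, and -1.39 in WT livers, adjusted p = 1.02e-06).

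Markers of other cells moved with some of the same comparisons. Kupffer cell markers, of which 15 were measured, had 7 higher and 0 lower in fasted Mcl1(L-/-) than in fasted WT livers. Their summed linear signal ranged from 749.5 to 1259 in fasted Mcl1(L-/-) livers, from 969.3 to 1281 in fed Mcl1(L-/-) livers, from 649 to 789.7 in fasted WT livers and from 944.5 to 1233 in fed WT livers. With fasting 1 rose and 3 fell in Mcl1(L-/-) livers, and 0 rose and 6 fell in WT livers. The sums of fasted Mcl1(L-/-) replicates 1 to 5 were 759.2, 749.5, 772.3, 1259 and 1114, beside medians of 0.55, 0.62, 0.23, 0.58 and 0.68 in the ribosome biogenesis genes. In the fasting comparison of Mcl1(L-/-) livers 4 of 13 sinusoidal endothelial markers rose and 0 fell. Their summed signal was 1012, 1102, 756.8, 1083 and 1025 in fasted Mcl1(L-/-) replicates 1 to 5, replicate 3 being the lowest, against 694.6 to 892.9 in fed Mcl1(L-/-) livers. It ranged from 714.7 to 973.7 in fasted WT livers, against 871.5 to 1069 in fed WT livers. Of 13 stellate markers 2 rose and 2 fell with fasting in Mcl1(L-/-) livers, Dcn (log2 0.82) and Rgs5 (0.91) up and Col3a1 (-1.70) and Reln (-0.56) down, and 4 of 13 lay above 0. Col3a1 was dim, under 4 on the log2 scale on 18 of 20 arrays. The summed stellate signal did not overlap between these groups, at 1472 to 1992 in fasted and 1039 to 1360 in fed Mcl1(L-/-) livers, and ran from 1002 to 1286 in fasted WT livers, against 856.8 to 1248 in fed WT livers. This sum is carried largely by Dcn, at a mean of 9.72 far the brightest stellate marker. The median difference over the 13 stellate markers was -0.30 on the log2 scale for fasting in Mcl1(L-/-) livers. Of 12 infiltrating myeloid markers 1 rose, Retnlg, and 0 fell. All 12 were dim, with means under 4 on the log2 scale, and Retnlg was under 4 on 17 of 20 arrays. Lymphocyte markers had 0 of 13 called and cholangiocyte markers 0 higher and 1 of 10 lower, and the defining genes Cd3e, Krt19 and Epcam were under 4 on the log2 scale on all 20 arrays. For the interaction, 14 of 15 Kupffer markers lay above 0, with a median of 0.59, and 2 were called higher. These were Vsig4 (limma adjusted p = 0.022) and Fcna (0.0445). Endothelial markers had 13 of 13 above 0, a median of 0.56 and 0 called. The members had 41 of 47 above 0 and a median of 0.33, beside 48.2% of all probe sets above 0. Stellate markers had 6 of 13 above 0 and a median of -0.10. The part of these cells in the members' signals was not tested.

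Cell cycle markers, which often run with ribosome production in growing cells, were not called higher. Of 27 measured, 0 were higher and 8 lower in fasted than in fed Mcl1(L-/-) livers, beside 8.2% and 6.25% of all probe sets. Their summed linear signal was 416.9 to 471.6 in fasted Mcl1(L-/-) livers, 456.6 to 779.5 in fed Mcl1(L-/-) livers, 391.5 to 446.6 in fasted WT livers and 445.8 to 495.8 in fed WT livers. Pcna, at a mean of 7.63 far the brightest of them, weighs most in these sums. Top2a was under 4 on the log2 scale on all 20 arrays and Mki67 on 19. Most of the 27 were likewise under 4 on all 20 arrays, the called Mcm4 (mean 2.53) among them. So the list can say little about the cell cycle in these livers.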

How the data were processed

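Liver RNA of 20 mice was read on Affymetrix arrays. RNA was isolated with Trizol and labelled with the GeneChip WT PLUS kit, per the labels' protocols. The authors deposited normalised signals, taken here as log2, for which the submitters' processing notes name RMA and Partek 7.0. The log base and the RMA settings were not stated, and values ran between 1.34 and 12.56. RMA brings all arrays to 1 distribution, which hides a change common to nearly all RNAs, and it compresses folds of dim probe sets.

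Symbols came from the platform annotation, and the probe set with the highest mean stood for a symbol. Using limma 3.58.1 in R 4.3.3 (lmFit, eBayes, prior df 6.951), group means were estimated for 22206 probe sets over the 20 arrays together. P-values were adjusted by Benjamini-Hochberg over all probe sets and called under 0.05. A difference is fasted minus fed or Mcl1(L-/-) minus WT, and SE and 95% intervals come from the fit. The steps were tested on simulated data. Arrays, not reads, limit the precision.

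The members and all lists were chosen with earlier results of these data known. Signals in every liver are given for members with 1 of the 2 lowest p-values of their role for fasting in Mcl1(L-/-) livers or the lowest for another comparison, or with a called genotype difference. Up to 3 called genes per other list and direction are named. Promoters came from RefSeq (GRCm38.p6). Alternatives were other scaling and moderation, array weights, a dim filter, a replicate block, fits to the compared groups and leaving out each array. Of 30 pairs of arrays with the same replicate number, 1 correlated above 0.1 in its deviations from the group means, so the numbers were not taken as pairs.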

Additional observations from a re-analysis of the deposited data

Results flagged for a closer look

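In 7 of 188 groups of 5 livers, 1 liver stood apart from the other 4, with a gap to the nearest of more than 0.71 of the group's range. Chance gives this in about 1 in 20 groups. Polr1a read 4.61 in fed Mcl1(L-/-) replicate 1, below 5.36 to 5.47 in the other 4. Bms1 read 6.40 in fasted Mcl1(L-/-) replicate 3, above 5.88 to 5.98, the reverse of that liver's low place in most members. Imp4 read 6.72 in fasted Mcl1(L-/-) replicate 2, above 6.03 to 6.19. Noc3l read 3.43 in fasted WT replicate 4, below 3.89 to 3.95, and Bop1, a dim probe set, read 3.35 in fasted WT replicate 2, below 3.52 to 3.58. In fed WT replicate 2, Nop14 read 5.37, above 4.91 to 4.98, and Nop16 read 7.05, above 6.79 to 6.84. None of these causes was tested.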

How the results depend on the processing

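Over all alternatives the number of members called higher with fasting in Mcl1(L-/-) livers stayed between 21 and 27 (26 as reported), 0 members were called lower in any of the 5 comparisons, and 0 members were called for the deletion in fed mice. For fasting in WT livers the count of 2 was 4 with array weights and 4 with the filter on dim signals, and 1 to 4 when 1 array was left out. For the deletion in fasted mice the count of 13 was 6 to 17 under changed settings, with 6 in a fit to the compared groups alone. It was 6 to 22 when 1 array was left out. The interaction gave 0 to 6, with 6 only without fasted Mcl1(L-/-) replicate 3. The cause was not tested, beyond the smaller number of arrays in these fits. With the replicate number as a block, though the numbers did not pair the livers, the counts were 24 for fasting in Mcl1(L-/-), 2 for fasting in WT, 11 for the deletion in fasted mice and 0 for the deletion in fed mice and for the interaction.

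Of 41 called differences of single members, 25 stayed called under every alternative and 16 were lost under at least 1. Among 27 alternatives, the fasting call in Mcl1(L-/-) livers was lost in 13 for Wdr75, 10 for Utp20 and 6 for Wdr3. The genotype call in fasted mice was lost in 12 for Ddx52, 8 for Mrto4, and 7 each for Heatr1, Noc2l and Tsr1. Ftsj3 lost its fasting call in WT livers in 7. Signs were followed only for 69 differences of single members, the 41 called ones among them. Of these 69, 2 changed sign, and neither was called. Without fed WT replicate 4 the deletion in fed mice gave -0.000916 for Pes1 and -0.00860 for Rrp12, and leaving out 1 array at a time gave up to 0.170 for Pes1 and 0.233 for Rrp12. Dim signals limit Dkc1, Bop1 and Rrp12.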
